A study of Mus musculus with 23 samples.

Results

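The genes described here encode the subunits, assembly factors and regulators of the proteasome. They were taken as every row of the count table whose symbol reads Psm followed by a, b, c, d, e, f or g and a number, without the inducible catalytic subunits Psmb8, Psmb9 and Psmb10, which left 45 of 48397 symbols. By role they are 14 genes of the core particle, 9 of the base and 8 of the lid of the regulatory particle, 7 assembly factors, 5 regulators and 2 tissue-restricted core subunits. RNA came from tumours of Met1-iRFP cells in FVB mice. Met-1 is a mouse mammary cancer cell line, and its iRFP label, which fluoresces in the near infrared, was used to sort the tumours into cancer cells (iRFP+) and cells of the tumour microenvironment (TME, iRFP-). Mice were exercised or sedentary, which gave 8 libraries of sedentary cancer cells, 7 of exercised cancer cells, 4 of sedentary TME cells and 4 of exercised TME cells. Every group shares the tumour line and the strain, no group is free of tumour, and the labels give neither age nor sex nor the form of exercise. The labels do not say that each library is a separate mouse, and a p-value here covers only the variation among libraries, which may be technical.

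The proteasome degrades proteins tagged with ubiquitin. Its barrel-shaped core is built of alpha rings, which gate the entry, around beta rings, which hold the caspase-like (Psmb6), trypsin-like (Psmb7) and chymotrypsin-like (Psmb5) active sites. The base of the regulatory particle carries a ring of ATPases that unfold the substrate, and the lid carries the deubiquitinase Psmd14, which removes the ubiquitin chain. Interferon replaces the catalytic subunits with Psmb8, Psmb9 and Psmb10, and when proteasome function falls the transcription factor NRF1 (gene Nfe2l1) raises the subunit genes together through antioxidant response elements in their promoters.

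The promoters of 4 subunits whose transcript levels differed between the sorted fractions in sedentary mice are given here for what their sequences share with the other members. Psmc5 and Psmc6 encode ATPases of the same ring and differed in opposite directions, and Psmb5 and Psmb6 are catalytic. The sequences are from RefSeq (GRCm38.p6), 5′ to 3′ on the gene's strand, and stop before the annotated transcript. Capitals mark a match to TGACNNNGC, the core of the antioxidant response element, on either strand. They lie at chr11:106255935-106256153 (Psmc5, plus strand), chr14:45329574-45329787 (Psmc6, plus strand), chr14:54618023-54618245 (Psmb5, minus strand) and chr11:70525107-70525356 (Psmb6, plus strand).
Psmc5: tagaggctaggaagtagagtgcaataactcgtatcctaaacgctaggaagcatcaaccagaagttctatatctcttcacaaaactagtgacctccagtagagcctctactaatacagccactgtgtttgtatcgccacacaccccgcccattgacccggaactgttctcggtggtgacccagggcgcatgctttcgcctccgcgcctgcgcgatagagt
Psmc6: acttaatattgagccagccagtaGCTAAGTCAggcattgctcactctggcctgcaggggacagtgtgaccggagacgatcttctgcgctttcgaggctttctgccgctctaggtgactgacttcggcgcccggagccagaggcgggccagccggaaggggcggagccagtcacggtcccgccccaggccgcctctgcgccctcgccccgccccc
Psmb5: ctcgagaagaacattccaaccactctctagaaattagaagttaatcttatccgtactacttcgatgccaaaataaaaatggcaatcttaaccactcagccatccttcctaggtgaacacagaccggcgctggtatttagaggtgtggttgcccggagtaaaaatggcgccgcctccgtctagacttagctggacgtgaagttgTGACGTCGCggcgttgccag
Psmb6: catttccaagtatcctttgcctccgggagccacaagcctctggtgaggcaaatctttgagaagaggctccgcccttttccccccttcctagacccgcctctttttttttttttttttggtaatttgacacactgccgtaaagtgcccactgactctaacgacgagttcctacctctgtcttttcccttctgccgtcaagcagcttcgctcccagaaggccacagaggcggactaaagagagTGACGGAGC

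Of the 45 members, 37 had an entry in the RefSeq promoter table, each searched over the 250 bases before the start on both strands. TGACNNNGC was found in 5 of the 37 (13.5%, against 11.5% of 27025 genes): Psmb5, Psmb6, Psmc6, Psmd12 and Psmd9. CCAAT was found in 13 of the 37 (35.1%, against 37.5%), 6 of them among the 11 core genes with an entry. The core of the interferon-stimulated response element was found in Psmb3, Psmd4 and Psmd9 (8.1%, against 3.5%). No match of these motifs overlapped another. The Psmc5 window held none of the 3, which says only that these letters are not in it.

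Total counts ran from 15924340 to 25563245 in cancer cells of sedentary mice, 20073700 to 25526059 in cancer cells of exercised mice, 16307545 to 35958441 in TME cells of sedentary mice and 22682216 to 37388479 in TME cells of exercised mice. In TME sedentary libraries 4 and 6, 42.25% and 14.46% of counts came from mitochondrial genes, against 1.86% to 8.63% in the other 21 libraries. CPM is the count scaled to the library size. Summed CPM of 6 pan-leukocyte markers was 8.62 to 19.3 and 17.3 to 50.5 in cancer cells of sedentary and exercised mice, and 211 to 260.0 and 133 to 823 in the matching TME cells. The 5 epithelial markers summed to 71.2 to 120.3 and 58.9 to 102 in cancer cells of sedentary and exercised mice. In TME cells they summed to 56.8 to 104 and 44.0 to 77.2. Most of this was Krt18, with means of 92.7 and 71.0 CPM in cancer cells and 74.0 and 54.7 CPM in TME cells. Epcam, Krt8 and Krt19 had means of 1.4 CPM or less in every group. Cdh1 had means of 0.56 and 0.46 CPM in cancer cells and 2.90 and 4.28 CPM in TME cells. The 5 fibroblast markers summed to 560.0 to 729 in cancer cells and 928 to 2197 in TME cells. Most of the sum in cancer cells was Dcn and Pdgfra. Pdgfra had means of 393 and 433 CPM in cancer cells and 334 and 340 CPM in TME cells. Col1a1 had means of 24.8 and 17.2 CPM in cancer cells and 315 and 227 CPM in TME cells. Col1a2, Col3a1 and Dcn were also higher in TME cells. No listed marker was at 0 in all libraries of a group. Of the tested members 8 share more than 50% of their transcript with other annotated genes at 95% identity or more, and their counts are uncertain: Psma4, Psma5, Psmb3, Psmb5, Psmc1, Psmd2, Psmd11 and Psme2. Another protein-coding gene overlaps 10 of the tested members, among these Psma2, Psmb7, Psmd1, Psmd9, Psmd13 and Psmg3, and no source used here says whether counting used strand. For Psma2, Psmd1 and Psmg3 an overlapping gene lies on the same strand, over 8943, 5515 and 2816 bases, which a strand setting would not separate.

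Not every member was constitutive here. Psma8, the testis alpha subunit, had 0 to 2 counts in each cancer library, 3, 3, 17 and 0 counts in TME sedentary libraries 4, 6, 9 and 10, and 9, 25, 60 and 0 counts in TME exercise libraries 7, 8, 9 and 10. Psmb11, the thymus beta subunit, had 0 to 3 counts in all libraries except TME sedentary 9, with 16. Neither passed the filter on low counts. The other 43 passed in every comparison and had reads in every library, so 43 of 45 members fit the label. Psme1 and Psme2 among them are known to be inducible by interferon.

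The members took a small and similar share of all counts in the 4 groups. The share was 0.579% ± 0.025 (SD, n = 8) in cancer cells of sedentary mice and 0.599% ± 0.024 (SD, n = 7) in those of exercised mice. In TME cells it was 0.515% ± 0.110 (SD, n = 4) in sedentary mice and 0.560% ± 0.044 (SD, n = 4) in exercised mice. The lowest value was 0.369%, in TME sedentary library 4. With mitochondrial counts left out, the group means were 0.598%, 0.616%, 0.619% and 0.592%, and that library had 0.6395%. In bulk samples, fewer cells of a type and less RNA per cell cannot be told apart.

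In cancer cells of sedentary mice the core genes varied more between libraries than the base or lid genes. The core mean in log2 CPM ran from 6.22 to 6.72, with a median of 6.498, in cancer cells of sedentary mice, and from 6.46 to 6.66, with a median of 6.49, in those of exercised mice. The SD was 0.17 in the first group and 0.07 in the second. Cancer sedentary libraries 4 (6.22), 9 (6.31) and 6 (6.37) lay below every exercised cancer library. Cancer sedentary libraries 7 (6.72) and 10 (6.67) lay above every exercised cancer library. In TME cells the core mean was 6.78, 6.52, 6.60 and 6.75 in sedentary libraries 4, 6, 9 and 10, and 6.66, 6.67, 6.53 and 6.42 in exercised libraries 7, 8, 9 and 10. All 8 of these values lay within the range of the cancer sedentary libraries except those of TME sedentary libraries 4 and 10.

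The lid genes were ordered otherwise. Their mean log2 CPM was 7.36 ± 0.06 (SD, n = 8) and 7.48 ± 0.07 (SD, n = 7) in cancer cells of sedentary and exercised mice, and 7.21 ± 0.14 (SD, n = 4) and 7.20 ± 0.05 (SD, n = 4) in TME cells. The exercised cancer libraries lay above every exercised TME library, from 7.40 against a highest TME value of 7.22. For the base genes the 4 means were 7.39 ± 0.11, 7.45 ± 0.05, 7.38 ± 0.09 and 7.31 ± 0.09 in the same order. Ordered by mean, neighbouring groups overlapped for the base.

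**Figure D1:**
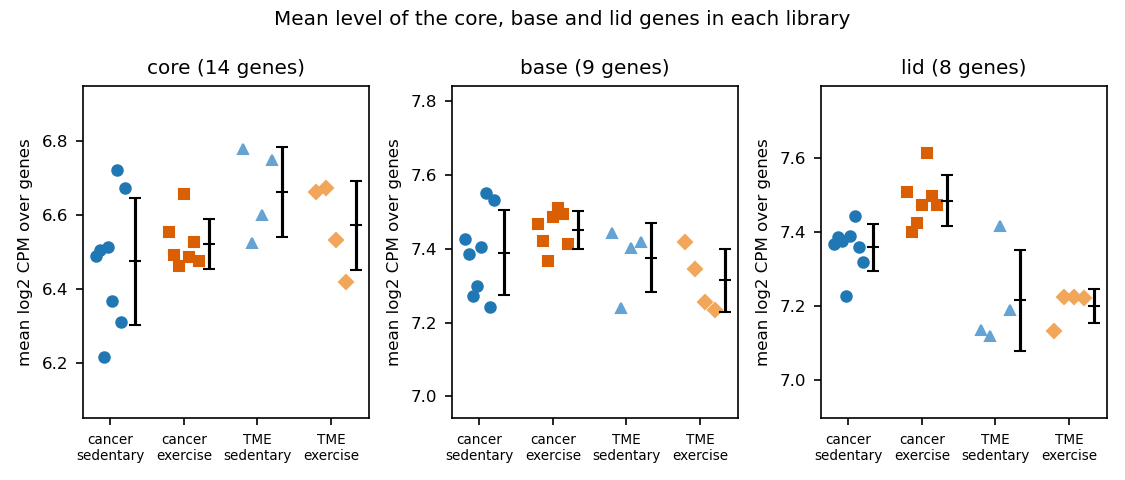
Mean log2 CPM over the 14 core, 9 base and 8 lid genes (y axis) in each library (points) of the 4 groups, with the group mean and SD in black; the y axes span the same width but do not start at 0. Core values spread most in cancer cells of sedentary mice, from 6.22 to 6.72, and lid values are higher in cancer cells than in most TME libraries.

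Per length, the subunits of a part were present at unequal transcript levels, though they are incorporated in equal numbers. In cancer cells of sedentary mice the mean CPM per kilobase of transcript ran from 48.9 (Psmc4) to 141 (Psmc1) among base genes and from 31.8 (Psmd13) to 188 (Psmd14) among lid genes. Among core genes it ran from 13.7 (Psma2) to 192 (Psmb3), with a median of 98.9. Assembly factors were lower, with a median of 17 and the lowest value at 3.46 (Psmg3). These levels depend on which annotated transcript gives the length, and those of Psmb3, Psmb5 and Psmc1 also on reads that their copies could take. Those of Psma2 and Psmg3 also depend on how reads were counted where another gene on the same strand overlaps them.

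**Figure D2:**
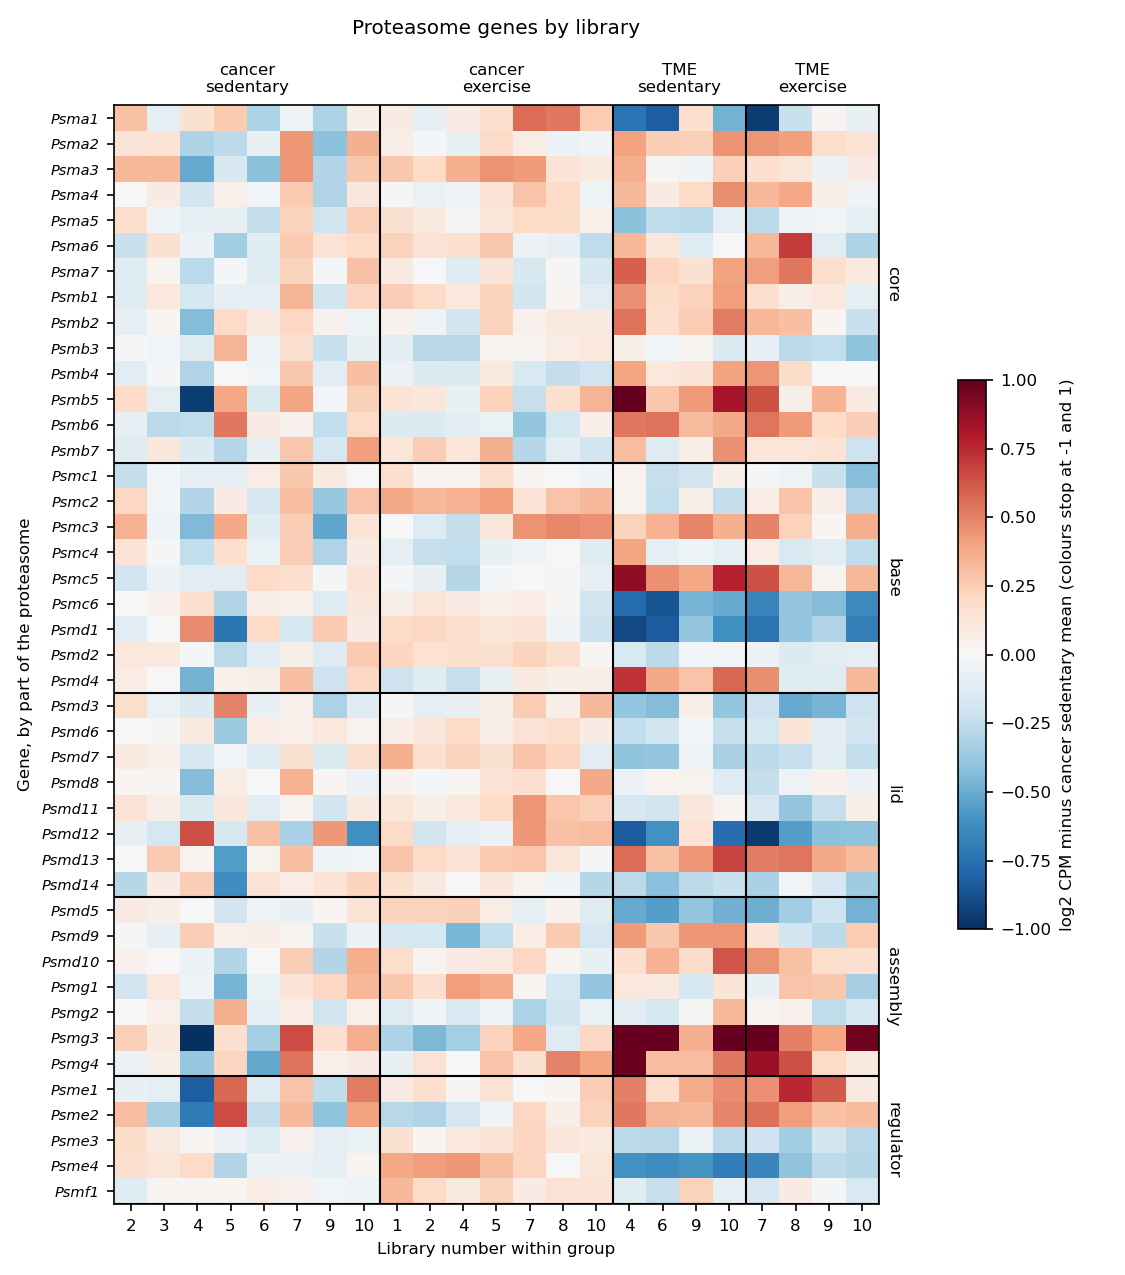
Log2 CPM of each of the 43 tested genes (rows, by part) in each of the 23 libraries (columns, by group) as the difference from the mean of the cancer sedentary libraries; red is higher, blue lower, and colours stop at 1 in either direction. Psmc6, Psmd1 and Psme4 are blue across most TME libraries and Psmc5 and Psmg3 red, while cancer sedentary library 4 has blue core genes.

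No member passed the test for exercise in cancer cells. With edgeR's quasi-likelihood test over 15096 genes, 0 of 43 members passed an adjusted p of 0.05, as did 0% of all genes, and 0 passed with DESeq2 or limma voom, which called 146 and 196 genes in all. At an unadjusted p under 0.05, 5 members were higher and 1 lower, against 5.92% and 6.67% of all genes. The median log2 fold change (exercise minus sedentary) of the members was 0.02, against -0.01 for all genes, and their values ran from -0.19 to 0.26. Of the 43, 27 were above 0 and 16 below, against 47.4% and 52.6% of all genes. By part the medians were 0.01 for the core, 0.01 for the base and 0.07 for the lid. Pearson's r of the fold change with log2 transcript length was 0.44 over the members and 0.22 over all genes. This describes genes that share the same libraries.

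The members with the smallest p in each direction were Psme4, Psmc2 and Psmd11 above 0 and Psmg2, Psmb4 and Psmc4 below. Psme4, or PA200, a nuclear activator of the core, had 204, 247 and 286 CPM (lowest, median and highest) in cancer cells of sedentary mice and 248.8, 308 and 338 CPM in those of exercised mice. The groups overlapped, and the log2 difference was 0.23 ± 0.08 (SE; edgeR adjusted p = 0.246). Psmc2, a base ATPase, had 92.2, 122 and 148 CPM against 132, 151 and 159.7 CPM, a difference of 0.26 ± 0.09 (SE; edgeR adjusted p = 0.264). For Psmd11, a structural lid subunit, the difference was 0.17 ± 0.07 (SE; edgeR adjusted p = 0.339), and for Psmg2, a core chaperone, -0.18 with an adjusted p of 0.373 by the same test. Psmb4, a structural beta subunit, and Psmc4, a base ATPase, were at -0.17 and -0.16 (edgeR adjusted p = 0.42 and 0.428). Psmf1, or PI31, was the member whose groups did not overlap: 46.6 to 53.4 CPM in sedentary and 53.6 to 63.4 CPM in exercised mice, as in 0.298% of all genes in that direction (0.053% in the other), with a log2 difference of 0.14 (edgeR adjusted p = 0.379). Among the catalytic subunits the differences were 0.02 ± 0.15 for Psmb5, -0.19 ± 0.11 for Psmb6 and 0.00 ± 0.11 for Psmb7 (SE).

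No member passed the test for exercise in TME cells either. Of 43 members 0 passed with edgeR over 16273 genes, as did 0% of all genes, and 0 passed with DESeq2, which called 40 genes, or limma voom, which called 0. At an unadjusted p under 0.05, 0 members were higher and 3 lower, against 4.93% and 3.51% of all genes. The median was -0.08, against 0.01 for all genes, and 31 of 43 members had a value below 0 and 12 above, against 48.7% and 51.3% of all genes. All 7 beta subunits of the core had negative values, with a median of -0.24, while the 7 alpha subunits had a median of -0.05. Pearson's r of the fold change with log2 transcript length was 0.34 over the members and 0.14 over all genes.

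Psmd9, a chaperone of the base, had 74.7, 67.0, 75 and 75.5 CPM in TME sedentary libraries 4, 6, 9 and 10 and 60.9, 48.6, 46.3 and 66.2 CPM in TME exercise libraries 7, 8, 9 and 10. The groups did not overlap, and the log2 difference was -0.41 ± 0.14 (SE; edgeR adjusted p = 0.586). Psmb1, a structural beta subunit, had 279, 230.3, 238 and 272 CPM against 228, 213, 219 and 190.4 CPM, again without overlap, with a difference of -0.28 ± 0.11 (SE; edgeR adjusted p = 0.586). Psmb1 and Psmd9 were the 2 members apart in this direction, as were 1.78% of all genes, and 0 members were apart in the other, against 1.96%. Psmb3, a structural beta subunit with a copied transcript, was at -0.24 ± 0.11 (SE; edgeR adjusted p = 0.586). Psme4 had the highest value, 0.22 ± 0.11 (SE; edgeR adjusted p = 0.592). With 4 libraries a group the intervals are wide: 2 SE around the Psmb5 value of -0.40 reached from -0.82 to 0.02.

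The test of whether exercise acted differently in cancer and TME cells called 0 of 43 members and 0% of 17503 genes with edgeR. It also called 0 members with DESeq2, which called 0 genes, and with limma voom, which called 36. At an unadjusted p under 0.05, 2 members were higher and 0 lower, against 3.34% and 4.18% of all genes. Of the 43 differences 31 were above 0 and 12 below, against 48.3% and 51.7% of all genes. They were Psmd11, with a difference of effects (cancer minus TME) of 0.33 ± 0.13 (SE; edgeR adjusted p = 0.591), and Psmb1, with 0.33 ± 0.15 (SE; edgeR adjusted p = 0.626).

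**Figure D3:**
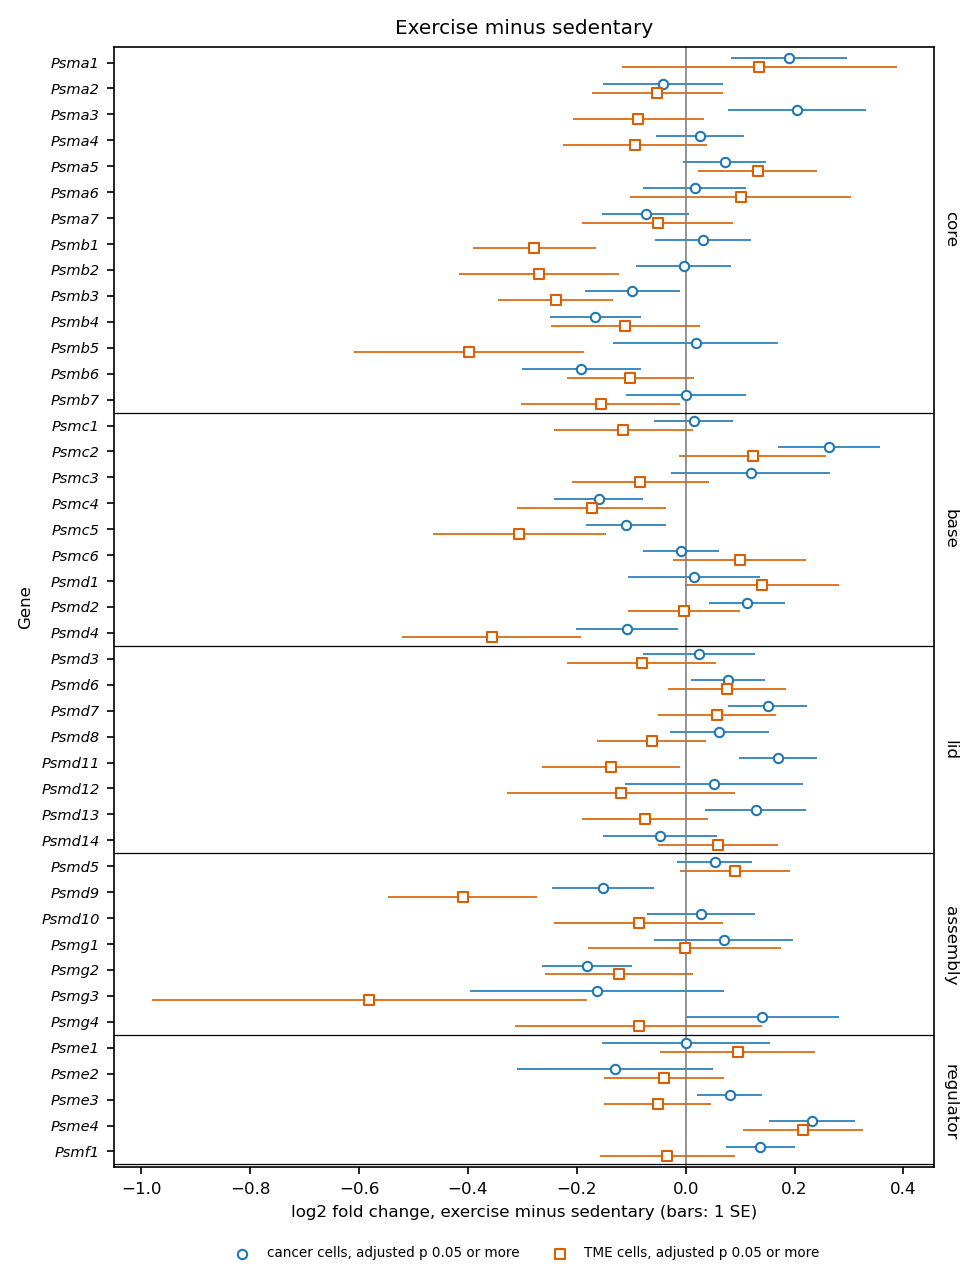
Log2 fold change of exercise minus sedentary (x axis, bars 1 SE) for each of the 43 genes (y axis, by part) in cancer cells (blue circles) and TME cells (orange squares); open symbols have an adjusted p of 0.05 or more. No symbol is filled, and the 7 beta subunits lie below 0 in TME cells.

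Between cancer and TME cells many members differed, as many other genes did. In sedentary mice 22 of 43 members passed with edgeR, against 40.8% of 17503 genes, and they were split into 8 higher in cancer cells and 14 lower, against 21% and 19.8% of all genes. In exercised mice 17 passed, against 36.9%, with 12 higher and 5 lower, against 19.5% and 17.3%. Without TME sedentary libraries 4 and 6, 12 of the 22 sedentary calls remained. Over all genes that run called 4323 of 18669, against 7142 of 17503 with these libraries. With the replicate number as a block, 12 members were called in exercised mice, 9 higher and 3 lower, of 3517 genes in all. Only numbers 7, 8 and 10 occur in both sorts of exercised mice. The exercised libraries without a partner of the same number add nothing to that run. The 5 calls lost were Psmb4, Psmd2, Psmd7, Psmf1 and Psmg3. Whether called or not, 19 members were above 0 and 24 below in sedentary mice (50.9% and 49.1% of all genes), and 23 and 20 in exercised mice (49.9% and 50.1%). Psmc6, Psmd1, Psmd7, Psmd5, Psme3 and Psme4 were called higher and Psma7, Psmb6, Psmc5 and Psmg3 lower in both without the block. No member was called in opposite directions, and the test of the difference above, which is also the test between these comparisons, called 0 of 43. The groups did not overlap for 3 members higher and 2 lower in sedentary mice (10.7% and 10.2% of all genes), and for 11 higher and 5 lower in exercised mice (13.8% and 11%).

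The split followed the parts of the proteasome and also the length of their transcripts. Median log2 fold changes (cancer minus TME) in sedentary mice were -0.26 for the core, 0.08 for the base and 0.23 for the lid, and in exercised mice -0.10, 0.23 and 0.31, against 0.01 and -0.00 for all genes. Some of these medians rest on single libraries: without TME exercise library 10 those of the core and base in exercised mice were -0.25 and 0.09, without TME exercise library 8 that of the core was -0.05, and without TME sedentary library 6 that of the base in sedentary mice was -0.0057. Across all genes, longer transcripts tended to be higher in cancer than in TME libraries. Over 13158 genes the slope of a library's deviation on each doubling of transcript length was -0.02 to 0.16 in cancer and -0.17 to -0.01 in TME libraries, with the highest in cancer sedentary 4 and the lowest in TME sedentary 4. Across the 43 members, Pearson's r of the fold change with log2 length was 0.55 in sedentary and 0.61 in exercised mice, and with GC content -0.51 and -0.47. These are descriptions over genes that share the same libraries. Over all genes Pearson's r was 0.18 and 0.16 with length and -0.24 and -0.16 with GC content. Spearman's rho over all genes was 0.32 and 0.35 with length and -0.48 and -0.38 with GC content, against 0.56 and 0.64 and -0.54 and -0.49 over the members.

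A fit with length and GC content removed within each library (chosen after seeing the data) brought the core near the median of all genes and left the lid above it. The correction itself moved the median of all genes to 0.15 and 0.16, and the medians of the core became 0.11 and 0.15, near that of all genes. The lid medians became 0.41 and 0.52, which is 0.25 and 0.36 above it, and the base medians 0.30 and 0.43, which is 0.14 and 0.27 above it. Under the correction 18 members were called higher and 5 lower in sedentary mice, where 6437 of 16944 genes were called. In exercised mice 26 were higher and 1 lower, where 6633 of 16944 genes were called. How the calls of all genes split by direction in this fit is not given here. These calls, and the corrected values of single genes below, are against 0 and not against the moved median of all genes. With the replicate block in the same fit, 18 members were higher and 0 lower in exercised mice, where 3638 genes were called. So the lower core levels in cancer cells depend on whether length and GC content are taken out. Among the 22 members with transcripts of 1440 bases or less, 1 was called higher and 10 lower in sedentary mice without the correction, and among the 21 longer ones 7 and 4. In exercised mice these counts were 1 and 5 among the shorter and 11 and 0 among the longer. How the calls of all genes split by length is not given here.

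**Figure D4:**
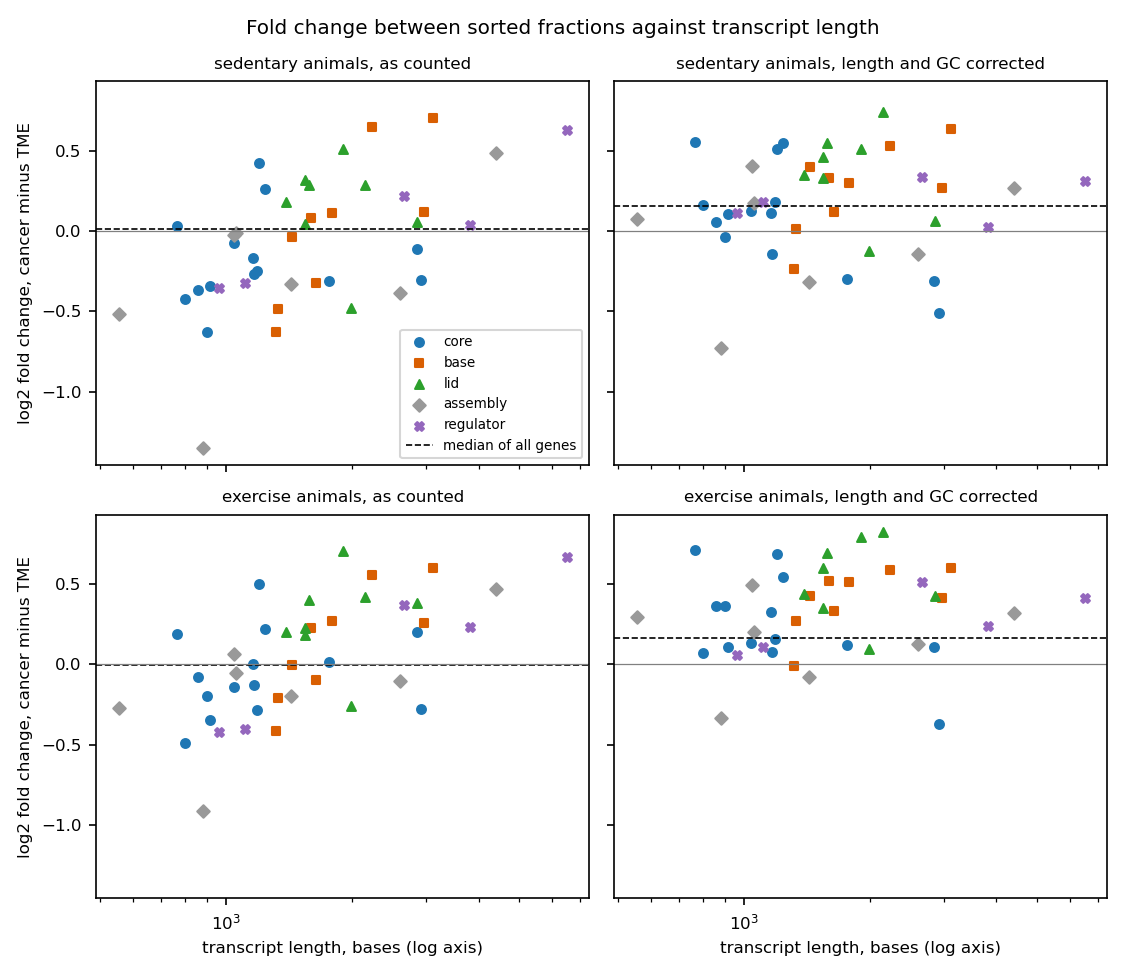
Log2 fold change of cancer minus TME cells (y axis) against transcript length (x axis, log scale) for the 43 genes, by part, in sedentary (top) and exercised mice (bottom), as counted (left) and with length and GC content corrected (right); the dashed line is the median of all genes. As counted, the shortest transcripts lie mostly below 0 and the longest above; after the correction the lid genes lie mostly above the dashed line, whose height is 0.15 and 0.16.

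Among the alpha subunits 1 was called higher and 3 lower in sedentary mice, and 1 and 1 in exercised mice. Psma7, the lower one in both, had 104, 123 and 153 CPM (lowest, median and highest) in cancer cells of sedentary mice and 189, 145, 138 and 165 CPM in TME sedentary libraries 4, 6, 9 and 10. The groups overlapped. The log2 differences were -0.34 ± 0.10 (SE; edgeR adjusted p = 0.00912) in sedentary and -0.34 ± 0.11 (SE; adjusted p = 0.0112) in exercised mice, and 0.11 in both with the correction. Psma5 went the other way, at 63.0 to 87.8 CPM in cancer cells of sedentary mice against 56.0, 62.1, 61.7 and 69.7 CPM in TME cells, a difference of 0.26 ± 0.09 (SE; edgeR adjusted p = 0.0255), and 0.55 with the correction, though 76.5% of its transcript is copied elsewhere. As counted, this call was lost with DESeq2, RLE size factors, the replicate block and the filter at a mean CPM of 1, and without cancer sedentary library 10, TME sedentary library 4, 6 or 9 or TME exercise library 10. Psma1 had the highest value of the core, 0.42 (edgeR adjusted p = 0.0646) in sedentary and 0.50 (adjusted p = 0.0357) in exercised mice, and 0.51 and 0.69 with the correction. The Psma1 call in exercised mice was lost with DESeq2, limma voom, RLE size factors, no mitochondrial genes and both other filters on low counts. It was also lost without cancer exercise library 7 or 8, TME sedentary library 4, 6 or 10 or TME exercise library 7, 8 or 10, and the value was 0.26 without TME exercise library 7.

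Of the 7 beta subunits 4 were called lower and 0 higher in sedentary mice, and 2 and 0 in exercised mice. Psmb6, the caspase-like subunit, had 56.0, 66.8 and 97.6 CPM in cancer cells of sedentary mice and 97.7, 98.7, 84.2 and 88.1 CPM in TME sedentary libraries 4, 6, 9 and 10. Cancer sedentary library 5 was the only cancer library of that group within the TME range. In exercised mice it had 51.6, 61.6 and 70.9 CPM against 98.3, 90.9, 77.8 and 80.1 CPM, without overlap. The differences were -0.42 ± 0.12 (SE; edgeR adjusted p = 0.00477) and -0.49 ± 0.12 (SE; adjusted p = 0.00177). With length and GC content corrected they were 0.16 and 0.07, against medians of all genes of 0.15 and 0.16. They were no longer called (edgeR adjusted p = 0.129 and 0.546).

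Psmb5, the chymotrypsin-like subunit, had 6.79, 14 and 17.4 CPM in cancer cells of sedentary mice against 28.3, 15.9, 17.7 and 23.4 CPM in TME cells. The lowest cancer value was that of library 4 and the highest TME value that of TME sedentary library 4. The difference was -0.63 ± 0.18 (SE; edgeR adjusted p = 0.00626), and -0.20 ± 0.19 (SE; adjusted p = 0.447) in exercised mice. With the correction they were -0.04 and 0.37 (edgeR adjusted p = 0.868 and 0.0462). A large part of this transcript, 88.4%, is copied elsewhere, so its level is uncertain. Psmb7, the trypsin-like subunit, did not pass in either, at -0.17 ± 0.13 and 0.00 ± 0.14 (SE), and was 0.11 and 0.32 with the correction, the second of which was called (edgeR adjusted p = 0.0266). Psmb1 kept its direction and call with the correction in sedentary mice, at -0.31 ± 0.10 (SE; edgeR adjusted p = 0.0148) without and -0.30 (adjusted p = 0.0142) with it. It was 0.02 ± 0.11 (SE) in exercised mice, and 0.12 with the correction. Psmb4 was called lower in exercised mice, at -0.29 ± 0.11 (SE; edgeR adjusted p = 0.0361), and was 0.16 (adjusted p = 0.147) with the correction. The Psmb4 call was lost with the replicate block, at -0.41 (edgeR adjusted p = 0.0528), and without cancer exercise library 2, 4, 7, 8 or 10 or TME exercise library 7.

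The base ATPases did not move together. Psmc6, on chromosome 14 (45329788 to 45349705, plus strand, GRCm38), had 196, 249.1 and 269 CPM in cancer cells of sedentary mice and 212, 251 and 263 CPM in those of exercised mice. In TME cells it had 141, 133, 175 and 169.8 CPM in sedentary libraries 4, 6, 9 and 10, and 152, 184, 178 and 155 CPM in exercised libraries 7, 8, 9 and 10. Every cancer library lay above every TME library. The differences were 0.65 ± 0.10 (SE; edgeR adjusted p = 5.59e-06) and 0.56 ± 0.10 (SE; adjusted p = 3.98e-05), and 0.53 and 0.59 with the correction, both called. Psmc6 was called in every alternative run for both comparisons.

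Psmc5, on chromosome 11 (106256154 to 106263120, plus strand, GRCm38), encodes another ATPase of the same ring. It had 109, 121 and 143 CPM in cancer cells of sedentary mice against 229, 170.0, 162 and 211 CPM in TME cells, and 102, 122 and 124 CPM against 193, 156, 127 and 155 CPM in exercised mice. The groups overlapped in neither. The differences were -0.63 ± 0.10 (SE; edgeR adjusted p = 2.12e-05) and -0.41 ± 0.11 (SE; adjusted p = 0.00278). With the correction they were -0.24 (edgeR adjusted p = 0.0396) and -0.01 (adjusted p = 0.943), so the call in exercised mice was lost. With the replicate block added to the correction, the Psmc5 call in sedentary mice was lost too. The other 4 ATPases, Psmc1, Psmc2, Psmc3 and Psmc4, passed in neither comparison, with values from -0.32 to 0.27.

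The scaffold and receptor subunits of the base also split. Psmd1, a scaffold on which the ubiquitin receptor Adrm1 docks, had 169, 287 and 387 CPM in cancer cells of sedentary mice against 149, 157, 214 and 182 CPM in TME cells. Cancer sedentary library 5 was the lowest, within the TME range. In exercised mice it had 241, 306 and 322 CPM against 168, 214, 227 and 174 CPM, without overlap. The differences were 0.70 ± 0.15 (SE; edgeR adjusted p = 0.000445) and 0.60 ± 0.15 (SE; adjusted p = 0.00244), and 0.64 and 0.60 with the correction, both called. Without TME sedentary libraries 4 and 6 together the sedentary value fell to 0.48 and the call was lost (edgeR adjusted p = 0.0732). Psmd4, the ubiquitin receptor, had 99.9, 144 and 171 CPM against 229, 181, 169 and 206 CPM, a difference of -0.48 ± 0.12 (SE; edgeR adjusted p = 0.00222) that became 0.02 (adjusted p = 0.92) with the correction.

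In the lid, 7 of 8 genes had values above 0 in both comparisons. In sedentary mice 2 were called higher and 1 lower, and in exercised mice 4 and 0. Psmd7, the inactive partner of the deubiquitinase, had 173, 195 and 216 CPM in cancer cells of sedentary mice against 147, 148, 187 and 155 CPM in TME cells, and 179.9, 224 and 247 CPM against 161, 165, 179 and 164 CPM in exercised mice. The groups overlapped in sedentary but not in exercised mice. The differences were 0.29 ± 0.09 (SE; edgeR adjusted p = 0.0121) and 0.40 ± 0.09 (SE; adjusted p = 0.00106), and 0.55 and 0.70 with the correction. The call in sedentary mice was lost without TME sedentary library 4, 6 or 10, at 0.20, 0.22 and 0.24. It was also lost without TME sedentary libraries 4 and 6 together and with the replicate block. The call in exercised mice was lost with the replicate block, at 0.38 (edgeR adjusted p = 0.0686). With the block and the correction Psmd7 was 0.69 and called. Psmd14, the deubiquitinase itself, was 0.32 ± 0.12 (SE; edgeR adjusted p = 0.0373) and 0.23 ± 0.12 (SE; adjusted p = 0.152). The first call was lost with DESeq2, RLE size factors and the filter at a mean CPM of 1. It was also lost without cancer sedentary library 3, 4, 6, 7, 9 or 10, any TME sedentary library or TME exercise library 9 or 10.

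Psmd12, a structural lid subunit, had the widest spread of the lid genes. It had 211, 297 and 505 CPM in cancer cells of sedentary mice against 182, 212, 357 and 191 CPM in TME cells, with cancer sedentary library 4 and TME sedentary library 9 the highest. The difference was 0.51 ± 0.21 (SE; edgeR adjusted p = 0.0533) in sedentary and 0.71 ± 0.21 (SE; adjusted p = 0.0114) in exercised mice. Without TME exercise library 7 the second was 0.53 and was not called (edgeR adjusted p = 0.0989). Psmd11 was called in exercised mice, at 0.38 ± 0.10 (SE; edgeR adjusted p = 0.00231), and lost the call without TME exercise library 8, at 0.26. Psmd13 was the lid gene that went lower, with 42.3, 62.9 and 76.9 CPM against 91.8, 76.3, 84.8 and 99.6 CPM in sedentary mice, a difference of -0.48 ± 0.11 (SE; edgeR adjusted p = 0.000765) that was -0.12 (adjusted p = 0.414) with the correction.

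**Figure D5:**
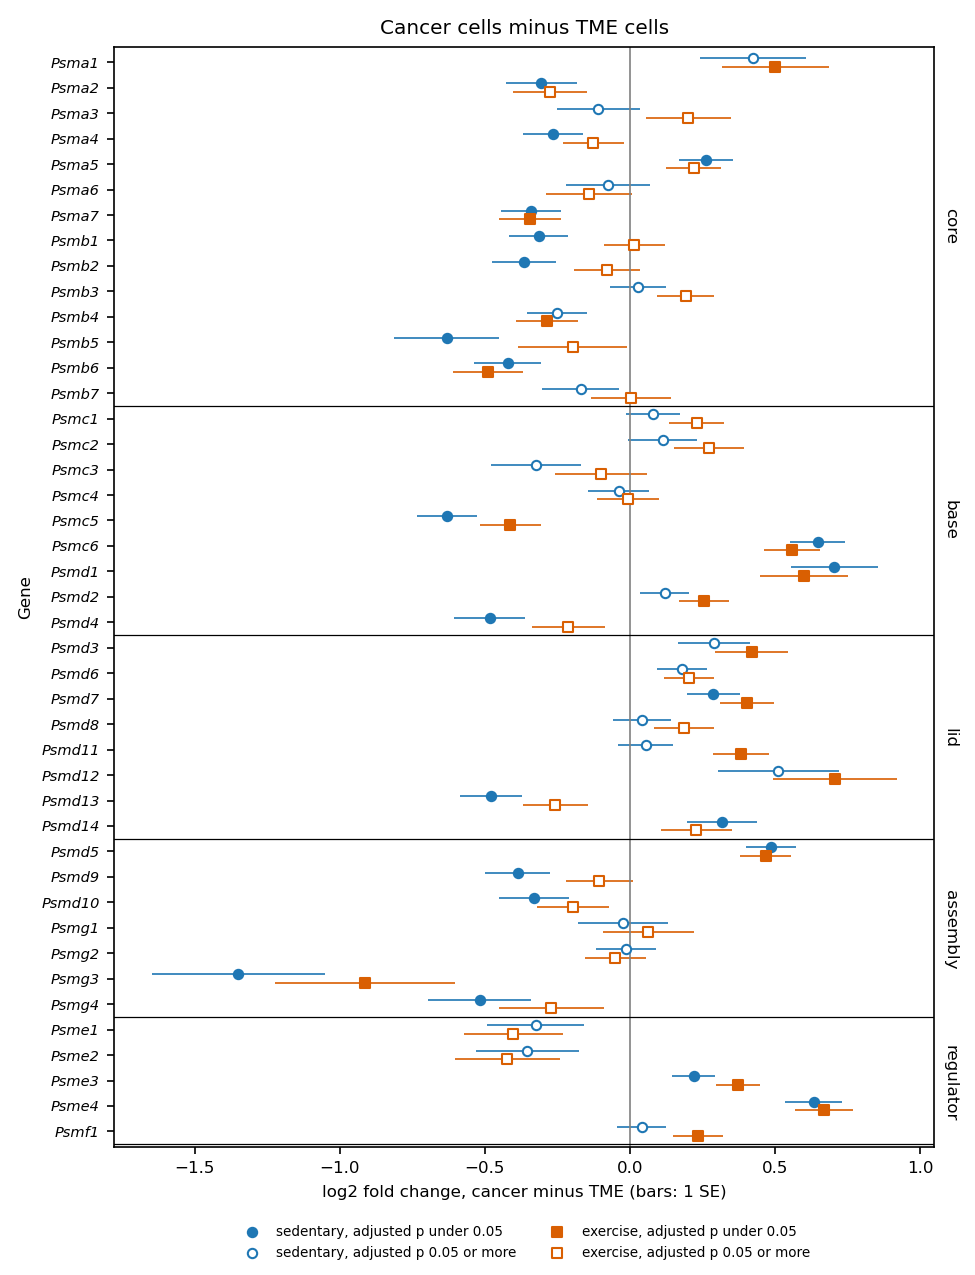
Log2 fold change of cancer minus TME cells (x axis, bars 1 SE), as counted, for each of the 43 genes (y axis, by part) in sedentary (blue circles) and exercised mice (orange squares); filled symbols have an adjusted p under 0.05. Lid genes lie mostly to the right and core genes mostly to the left of 0 in sedentary mice, and Psmc5 and Psmc6 lie on opposite sides.

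Of the 7 assembly factors 1 was called higher and 4 lower in sedentary mice, and 1 and 1 in exercised mice. Psmd5, a chaperone of the base, had 89.3, 102 and 112 CPM in cancer cells of sedentary mice against 71.2, 69.2, 76.9 and 72.6 CPM in TME cells, without overlap. The differences were 0.49 ± 0.09 (SE; edgeR adjusted p = 5.86e-05) and 0.47 ± 0.09 (SE; adjusted p = 0.000108), and 0.27 and 0.32 with the correction, both called. With the correction and the replicate block both Psmd5 calls were lost, and the value in exercised mice was 0.20 (edgeR adjusted p = 0.221). Psmd9 went the other way in sedentary mice, at -0.39 ± 0.11 (SE; edgeR adjusted p = 0.00624), and was -0.14 (adjusted p = 0.344) with the correction. Psmg3, a core chaperone, had 1.07, 3.21 and 4.54 CPM against 14.5, 6.10, 3.67 and 7.47 CPM, with TME sedentary library 4 the highest. The differences were -1.35 ± 0.30 (SE; edgeR adjusted p = 0.000647) and -0.91 ± 0.31 (SE; adjusted p = 0.0204), and -0.73 (called) and -0.33 (not called) with the correction. Without TME sedentary libraries 4 and 6 the first was -0.90 and was not called (edgeR adjusted p = 0.0563). It was not called either with the replicate block added to the correction. Without TME exercise library 7 the second was -0.75 and was not called, nor was it with the replicate block, at -0.82 (edgeR adjusted p = 0.257). Another gene on the same strand overlaps Psmg3, so its level is uncertain.

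The regulators of the core also divided. Psme4, on chromosome 11 (30771726 to 30880361, plus strand, GRCm38), had 204, 247 and 286 CPM in cancer cells of sedentary mice against 164, 163, 166 and 155 CPM in TME cells, and 248.8, 308 and 338 CPM against 159, 189, 208 and 205 CPM in exercised mice. Neither comparison overlapped. The differences were 0.63 ± 0.10 (SE; edgeR adjusted p = 1.35e-05) and 0.67 ± 0.10 (SE; adjusted p = 7.17e-06), and 0.31 and 0.42 with the correction, both called, but in exercised mice 0.29 (adjusted p = 0.0597) with the correction and the replicate block. It has the longest transcript of the 43, at 6491 bases. Psme3, the nuclear PA28 gamma activator, was 0.22 ± 0.07 (SE; edgeR adjusted p = 0.0181) and 0.37 ± 0.08 (SE; adjusted p = 0.000277). The first call was lost without TME sedentary library 4, 6 or 10 or TME exercise library 10, at 0.16, 0.16, 0.17 and 0.18. It was also lost with the replicate block and with no filter on low counts.

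Psme1 and Psme2, the interferon-inducible PA28 subunits, did not pass. Psme1 had 85.2, 142 and 224 CPM in cancer cells of sedentary mice against 214, 170.45, 195 and 209 CPM in TME cells, a difference of -0.33 ± 0.17 (SE; edgeR adjusted p = 0.125). Psme2 had 79.7, 136 and 204 CPM against 188, 165, 163 and 183 CPM, a difference of -0.35 ± 0.18 (SE; edgeR adjusted p = 0.116). In both genes cancer sedentary library 4 was the lowest and library 5 the highest of the cancer libraries. In exercised mice the values were -0.40 ± 0.17 and -0.42 ± 0.18 (SE; edgeR adjusted p = 0.0671 and 0.0704).

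Other genes of the pathway were read beside the members. Of 27 listed genes in the table, 9 were called higher and 7 lower in both sedentary and exercised mice, against 21% and 19.8% of all genes in sedentary and 19.5% and 17.3% in exercised mice. For exercise 0 passed in either cell fraction with edgeR. At an unadjusted p under 0.05, 3 were higher and 2 lower in cancer cells (5.92% and 6.67% of all genes), and 2 and 0 in TME cells (4.93% and 3.51%). All 3 inducible catalytic subunits were called lower in cancer cells as counted. Psmb8 had 21.8, 37 and 78.5 CPM in cancer cells of sedentary mice against 130.0, 87.9, 53.7 and 118 CPM in TME sedentary libraries 4, 6, 9 and 10, with differences of -1.25 ± 0.27 (SE; edgeR adjusted p = 0.000897) and -1.28 ± 0.28 (SE; adjusted p = 0.000984). For Psmb9 they were -0.95 and -1.19 and for Psmb10 -0.51 and -0.64, all called, though with the replicate block neither Psmb9 nor Psmb10 was called in exercised mice, at -0.81 and -0.52 (edgeR adjusted p = 0.0891 and 0.199). With the correction Psmb8 was -0.77 and -0.81, both called, Psmb9 was -0.47 and -0.71, neither called, and Psmb10 was 0.01 (edgeR adjusted p = 0.959) in sedentary mice. The pan-leukocyte markers given above differ between the fractions in the same direction as Psmb8, and their part in this result was not tested.

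Usp14, a deubiquitinase bound to the base, was higher in cancer cells, by 1.10 ± 0.19 (SE; edgeR adjusted p = 7.02e-05) in sedentary and 0.65 ± 0.19 (SE; adjusted p = 0.00903) in exercised mice, and by 0.77 and 0.44 with the correction. Adrm1, a ubiquitin receptor of the base, was lower by these counts, at -0.57 ± 0.10 and -0.41 ± 0.10 (SE), and was 0.05 and 0.10 with the correction, and with the replicate block the call in exercised mice was lost (edgeR adjusted p = 0.139). Pomp, the maturation factor of the core, was -0.45 ± 0.15 and -0.50 ± 0.16 (SE), called in both, and -0.22 in both with the correction, where it was not called. Nfe2l1, which encodes NRF1, had mean levels of 213 and 221 CPM in cancer cells and 223 and 219 CPM in TME cells of sedentary and exercised mice, with differences of -0.06 ± 0.12 and 0.01 ± 0.12 (SE) that did not pass.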

How the data were processed

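PolyA RNA of sorted tumour cells was sequenced in 23 libraries. The authors deposited a table of raw counts per gene symbol, made with STAR and featureCounts on mm10, per the submitters' processing notes; no source used here gives the annotation release or the strand setting. Groups came from the sample labels. Genes were filtered with filterByExpr (minimum count 10), scaled with TMM and tested with edgeR 4.0.16 (quasi-likelihood, Benjamini-Hochberg adjusted over all genes tested, threshold 0.05) in R 4.3.3, a procedure tested on simulated data. CPM values use TMM library sizes, and log2 CPM a prior count of 2. Alternatives used limma 3.58.1 and DESeq2 1.42.0, other scalings and filters, a replicate block, left-out libraries and a length and GC correction. Transcript lengths and copies (BLAST+ 2.17.0) came from the GRCm38 annotation, promoters from RefSeq; other steps used Python 3.11.15 and pandas 2.3.3.

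Named members were those past the threshold, up to the 6 smallest p in each direction, or the 3 smallest where none passed, plus the highest and lowest core, base and lid values, the catalytic subunits, Psmd14, Psmd4, Psme1, Psme2, Psma8 and Psmb11. Members and lists were chosen with earlier results of these data known. Of 28 listed pathway genes 27 were in the table; Paaf1 was not analysed here. The labels do not say what a replicate number marks. Deviations from the group means of same-numbered cancer and TME libraries correlated at 0.20, 0.40 and 0.31 in exercised mice. In sedentary mice the 4 pairs ran from -0.16 to 0.11. TME exercise library 7 correlated slightly better with another cancer library, at 0.209 against 0.201. Same-numbered libraries of opposite treatments also correlated above 0.1 in 1 of 5 cancer pairs (0.22) and 1 of 2 TME pairs (0.34). So a pairing by mouse is not established, and the replicate block is given as an alternative. The tests reported first have no block.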

Additional observations from a re-analysis of the deposited data

Results flagged for a closer look

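In 8 of 136 groups of values 1 library lay far from the others of its group relative to the group's range; chance gives about 1 such group in 20. Among base genes, Psmc4 was at 91.7 CPM in TME sedentary library 4, with the next library at 67.9 CPM. Psmc5 was at 102 CPM in cancer exercise library 4, with the next at 117 CPM, and Psmc6 at 212 CPM in cancer exercise library 10, with the next at 244 CPM. The catalytic subunit Psmb7 was at 39.0 CPM in TME exercise library 10, with the next at 48.9 CPM. In the lid, Psmd13 was at 42.3 CPM in cancer sedentary library 5, with the next at 60.6 CPM, and the lid mean was 7.13 log2 CPM in TME exercise library 7, with the next at 7.22. The base chaperone Psmd9 was at 67.0 CPM in TME sedentary library 6, with the next at 74.7 CPM. The activator Psme3 was at 118 CPM in TME sedentary library 9, with the next at 103 CPM.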

How the results depend on the processing

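The 3 exercise tests called 0 members in every alternative run. In cancer against TME cells of sedentary mice, leaving out 1 library at a time gave 17 to 26 members called, 4 to 10 higher (4 without TME sedentary library 4 or 6, 5 without TME sedentary 10 or TME exercise 10), 11 to 16 lower and a median of -0.11 to -0.02. In exercised mice it gave 12 to 21 called, 7 to 13 higher (7 without TME exercise 8), 4 to 10 lower (10 without TME sedentary 4, 6 or 10, 9 without TME exercise 10, 8 without cancer sedentary 5, TME sedentary 9 or TME exercise 9) and a median of -0.10 to 0.0545. The calls of all genes with 1 library left out are not given here. Without TME sedentary libraries 4 and 6 together, 13 members were called in sedentary mice, 3 of them higher, and 10 were lower in exercised mice. That run called 4323 of 18669 genes in sedentary and 6548 in exercised mice. Members called lower in exercised mice numbered 10 with DESeq2 and 9 with limma voom, RLE size factors, mitochondrial genes removed or a mean CPM of at least 1, where the median was -0.0716. In this order these runs called 6604, 7620, 6297, 6350 and 5671 genes in both directions together. The cause of the changed member counts was not tested.

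In sedentary mice 0 of 4 TME libraries correlated best with the cancer library of their own number. Among exercised TME libraries 8 and 10 did, and 7 did not. The block uses only libraries with a partner of the same number. With the replicate block, 23 members were called in sedentary mice (18 of the 22 shared, median -0.13), where 6178 genes were called. The sedentary calls lost were Psma5, Psmd7, Psmd10 and Psme3. In exercised mice 12 members were called, 3 of them lower, where 3517 genes were called. The block changed no other call of a member in exercised mice than the 5 named with the results.

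With length and GC content corrected, 18 members were higher and 5 lower in sedentary mice (median 0.17), where 6437 of 16944 genes were called. In exercised mice 27 members were called, 26 higher and 1 lower (median 0.34), where 6633 of 16944 genes were called. The median of all genes in this fit was 0.15 in sedentary and 0.16 in exercised mice. Values that changed sign against 0 included Psmd4 0.0156, Psmb6 0.16 and Psma7 0.11 in sedentary mice. In exercised mice they included Psmb6 0.0724, Psma7 0.11, Psmb4 0.16, Psmb5 0.37 and Psmd4 0.27. Psmd4 and Psma7 in sedentary mice and Psmb6 and Psma7 in exercised mice stayed below that median. With the replicate block added, 16 members were higher and 3 lower in sedentary mice (median 0.16, against 0.15 for all genes), with Psmb6 at 0.19. In exercised mice 0 were lower (median 0.33, against 0.13), with Psmb6 at 0.0167, Psma7 at 0.0425 and Psmb4 at 0.0501. These fits called 5165 and 3638 genes in all.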
